A study of Mus musculus with 56 samples.

Results

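The adrenal glands described here came from male mice that lacked Znrf3 in steroid-producing cells, at 6 and at 9 weeks of age. The comparison took 8 of the 56 samples of the study, 4 animals at 9 weeks against 4 at 6 weeks, taken by the genotype, sex and age in the labels. These conditional knockout (cKO) males carried SF1-Cre together with floxed Znrf3 (SF1-Cre+; Znrf3 Fx/Fx) on the C57BL/6J strain. SF1-Cre expresses the recombinase from regulatory sequence of the steroidogenic factor 1 gene, so other cells of the gland keep Znrf3. Control males of the same strain at 6 and 9 weeks, 4 at each age, were littermates labelled SF1-Cre negative, and the labels do not say which Znrf3 alleles they carried. Male cKO and control glands at 4 weeks, 4 of each, and female cKO glands at 6 and 9 weeks, 4 at each age, are given beside them. None of these groups had surgery or any other labelled treatment. The glands were whole, cleaned of fat and frozen, and the study asked what accompanies the switch from enlargement to shrinkage of the cKO gland.

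ZNRF3 is a membrane ubiquitin ligase that removes Frizzled receptors from the cell surface and so limits Wnt signalling, and R-spondins such as RSPO3 block it. In the adrenal gland the capsule secretes RSPO3 and the outer cortex answers with Wnt/beta-catenin activity, while the inner cortex makes glucocorticoid. A whole gland also holds medulla, vessels, nerve and immune cells, and its RNA is the sum of all of them. In such bulk RNA a lower level of a cell type's genes cannot be told apart between fewer cells and less RNA per cell.

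Library totals were 12431963 to 17896510 counts in the cKO glands at 6 weeks and 17592813 to 20533468 counts at 9 weeks (exact permutation test, two-sided, p = 0.0571; the smallest p that 4 against 4 allows is 0.0286). Mitochondrial transcripts took 3.68 to 4.44% of counts at 6 weeks and 4.1 to 5.84% at 9 weeks (exact permutation p = 0.0857). The number in the library titles ran from 13 to 16 at 6 weeks and was 21, 22, 26 and 27 at 9 weeks, so it moved with age. In control males it was 25, 31, 32 and 33 at 6 weeks and 19, 20, 34 and 35 at 9 weeks, so it differed between genotypes too. The part of depth, mitochondrial share and library number in the results was not tested, apart from the fits with library number given in the closing section. Albumin (Alb), a liver transcript, reached 45.1 CPM (counts scaled to a common library size) in replicate 2 at 6 weeks and 60.9 CPM in replicate 3 at 9 weeks, and was at most 4.02 CPM in the other 6 libraries. The mean level of 6 adipose tissue genes was 1.91 log2 units above the mean of the cKO libraries in replicate 1 at 6 weeks. It was 1.82 above in replicate 3 at 9 weeks, against -1.15 to -0.08 in the other 6 libraries. The summed level of these genes was 97.3 to 170 CPM at 6 weeks and 108 to 172 CPM at 9 weeks. All gene values below are TMM-normalised CPM.

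In each age group single libraries stood apart from the others. Replicate 3 at 6 weeks had a mean level of 29 cell cycle genes 1.14 log2 units above the mean of the cKO libraries, against -0.26 to 0.15 in the other 6-week libraries. The same library was lowest in the list of 18 lipid-laden macrophage genes at -1.16 log2 units, against -0.08 to 0.3. Replicate 1 at 9 weeks was also low in that list at -0.97, against 0.23 to 1.16 in the other 9-week libraries, and it had the highest steroid synthesis level at 0.26. Replicate 4 at 9 weeks was highest in the lipid-laden macrophage list at 1.16, against -0.97 to 0.27 in the other 9-week libraries. It was also highest in the macrophage and monocyte list at 0.72, against -0.27 to 0.17. The plot of list levels by library shows these libraries.

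**Figure D1:**
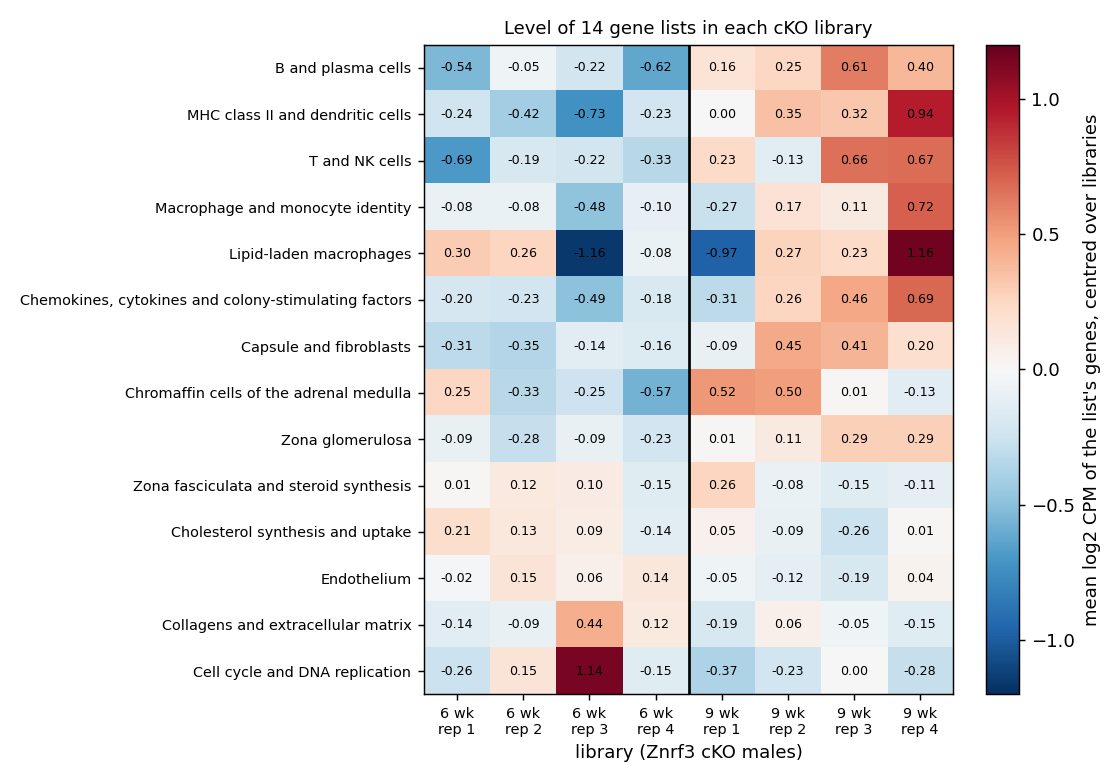
Mean log2 CPM of the genes of 14 lists in each of the 8 cKO libraries, centred over libraries; columns are libraries, the black line divides the 6-week from the 9-week animals, and red is higher. Replicate 3 at 6 weeks stands out in the cell cycle (1.14) and lipid-laden macrophage (-1.16) lists. In the latter replicates 1 (-0.97) and 4 (1.16) at 9 weeks stand out as well.

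Of 17086 genes tested, 130 (0.761%) changed between 6 and 9 weeks in cKO males at an adjusted p under 0.05 (edgeR's quasi-likelihood test over all 24 male libraries, Benjamini-Hochberg). The level was higher at 9 weeks for 70 genes (0.41%) and lower for 60 (0.351%). The rises were larger than the falls, with a median log2 fold change of 0.87 against -0.44, and 28 rises but 4 falls reached 2-fold. Genes of immunoglobulins, MHC class II, dendritic cells and the capsule were among the rises. Of 35 gene lists 4 held called rises and 0 held a called fall. The highest fitted rise was that of Rps2-ps10, a ribosomal protein pseudogene named after its values were seen, whose reads can come from near-identical copies. It rested on replicate 1 at 9 weeks with 106.5 CPM, against 0.811 to 1.24 CPM in the other 7 cKO libraries (log2 fold change 4.74, adjusted p = 0.04995 by edgeR). In 115 of the 130 genes the 4 libraries of an age all lay beyond the 4 of the other age, 56 among the rises and 59 among the falls, against 9.15% of all genes tested. These genes were already picked by the test, so the count gives no separate support.

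**Figure D2:**
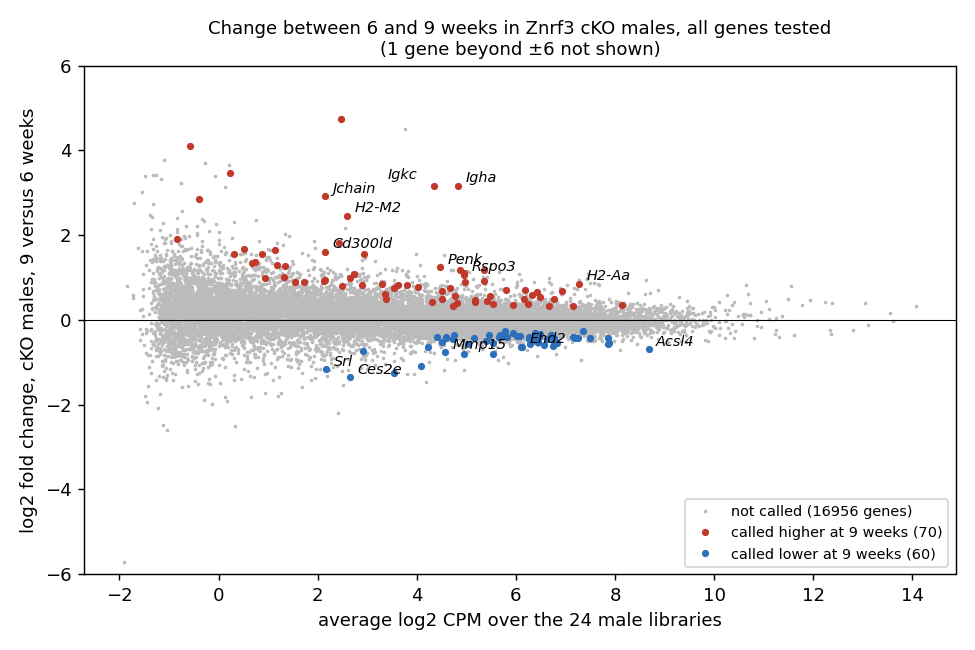
Log2 fold change between 9 and 6 weeks in cKO males against the average log2 CPM over 24 male libraries, 1 point per gene, with the 70 genes called higher in red and the 60 called lower in blue. The immunoglobulin genes Igkc and Igha lie high among the labelled genes, and the called falls sit close below 0.

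These calls lie near the threshold: 87 of the 130 had an adjusted p above 0.04, and an unadjusted p under 0.05 was found in 3363 genes (19.7%). Of all genes 10.5% were higher and 9.22% lower at that level, the shares to set beside the list counts below. DESeq2 called 740 genes (4.33%), 350 higher (2.05%) and 390 lower (2.28%), while a fit of the 8 cKO libraries alone called 0 (0%) by edgeR, with 2954 of 15844 genes at an unadjusted p under 0.05. Leaving out replicate 1 at 9 weeks raised the count to 1345 genes (7.74%), which held 128 of the 130. Leaving out any of the other 7 libraries lowered it to between 2 and 38, with 2 left (0.0115%) without replicate 3 at 6 weeks and 2 (0.0116%) without replicate 3 at 9 weeks. The 25 called genes that the naming rule gives kept their direction in each of these fits that tested them. They were picked by their calls in the same libraries, so the kept direction gives no separate support. Apart from Igkc, Jchain, Ehd2 and Mmp15, the other 21 were each called in 1 to 8 of the 14 to 16 alternative fits. Where an adjusted p without replicate 1 at 9 weeks is printed below, it comes from the fit with 1345 calls. For those genes the p without any of the other 7 libraries is not printed, so the lower p alone shows no change that the full fit missed.

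**Figure D3:**
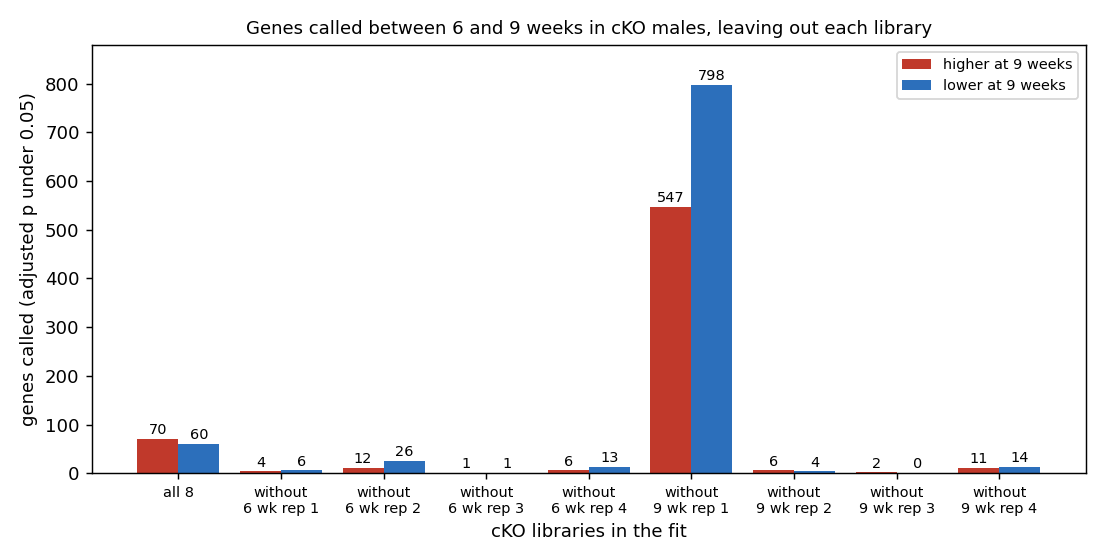
Number of genes called higher (red) and lower (blue) at 9 weeks in cKO males with all 8 cKO libraries in the fit and without each of them; bars start at 0. With all libraries the counts are 70 and 60, without replicate 1 at 9 weeks they are 547 and 798, and without any other library they are at most 12 and 26.

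Genes of immunoglobulin chains and their joining peptide, products of antibody-secreting plasma cells, rose. Igkc, the constant region of the kappa light chain (chr6:70726435-70726966, GRCm38), had 6.79, 13.2, 7.74 and 4.35 CPM in the 4 glands at 6 weeks and 19, 60.9, 112 and 98.6 CPM at 9 weeks. The ages did not overlap, and the lowest 9-week value was that of replicate 1. The level rose 8.94-fold (log2 fold change 3.16 ± 0.41 SE, adjusted p = 0.00152 by edgeR), the smallest adjusted p of the comparison. It was called in 14 of 16 alternative fits. Control males went from 9.23 ± 2.74 to 24.8 ± 6.85 CPM (mean ± SD, n = 4), a log2 fold change of 1.42 ± 0.39 that was not called.

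Igha, the heavy chain of the IgA class made at mucosal surfaces (chr12:113254830-113260236), had 11.3, 21.3, 7.54 and 2.49 CPM at 6 weeks and 29.4, 95.8, 125 and 138 CPM at 9 weeks. All 9-week glands lay above all 6-week glands, and the rise was 8.97-fold (adjusted p = 0.0362 by edgeR). In control glands Igha had 13.1 ± 6.35 CPM at 6 weeks and 46.1 ± 11.1 CPM at 9 weeks. Jchain, the peptide that joins IgA or IgM units into polymers (chr5:88519809-88527891), had 1.42, 3.66, 0.918 and 1.4 CPM at 6 weeks and 4.48, 19.1, 15.5 and 18 CPM at 9 weeks. It rose 7.54-fold (adjusted p = 0.0108 by edgeR), and was called in 13 of the 16 alternatives. The lambda constant region Iglc1 rose as well, from 0.287 ± 0.202 to 3.33 ± 1.87 CPM (adjusted p = 0.0432 by edgeR). Control males also had positive log2 fold changes, 1.2 for Jchain and 2.07 for Iglc1, against 2.91 and 3.46 in cKO males. In control males 3 genes of the B and plasma cell list were higher and 1 lower at an unadjusted p under 0.05 by edgeR, and none was called.

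Igkv10-96 and Iglv1, a kappa and a lambda variable segment named here after their values were seen, complete the 5 called immunoglobulin segments. Some variable segments are near-identical copies of others, so such counts can carry the uncertainty of how shared reads were split. Mzb1, a chaperone of antibody-secreting cells, had 0.672 to 1.71 CPM at 6 weeks and 0.849 to 1.32 CPM at 9 weeks (log2 fold change 0.12, adjusted p = 0.849 by edgeR). The genes of B cells before the plasma stage given here were not called. Ms4a1, which encodes the B cell antigen CD20, had 0.747 to 1.64 CPM at 6 weeks and 0.34 to 0.825 CPM at 9 weeks (adjusted p = 0.257 by edgeR). Ighm, the heavy chain of IgM, had 251 to 331 CPM at 6 weeks and 183 to 243 CPM at 9 weeks, lower in every library, and missed the threshold (adjusted p = 0.2 by edgeR). Ighm made up most of the summed 273 to 346 CPM of the B and plasma cell list at 6 weeks, and its cell source was not tested. Of the 10 genes of the B and plasma cell list 3 were called, all higher, and the list's median log2 fold change was 0.03, equal to that of all genes tested (0.03).

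**Figure D4:**
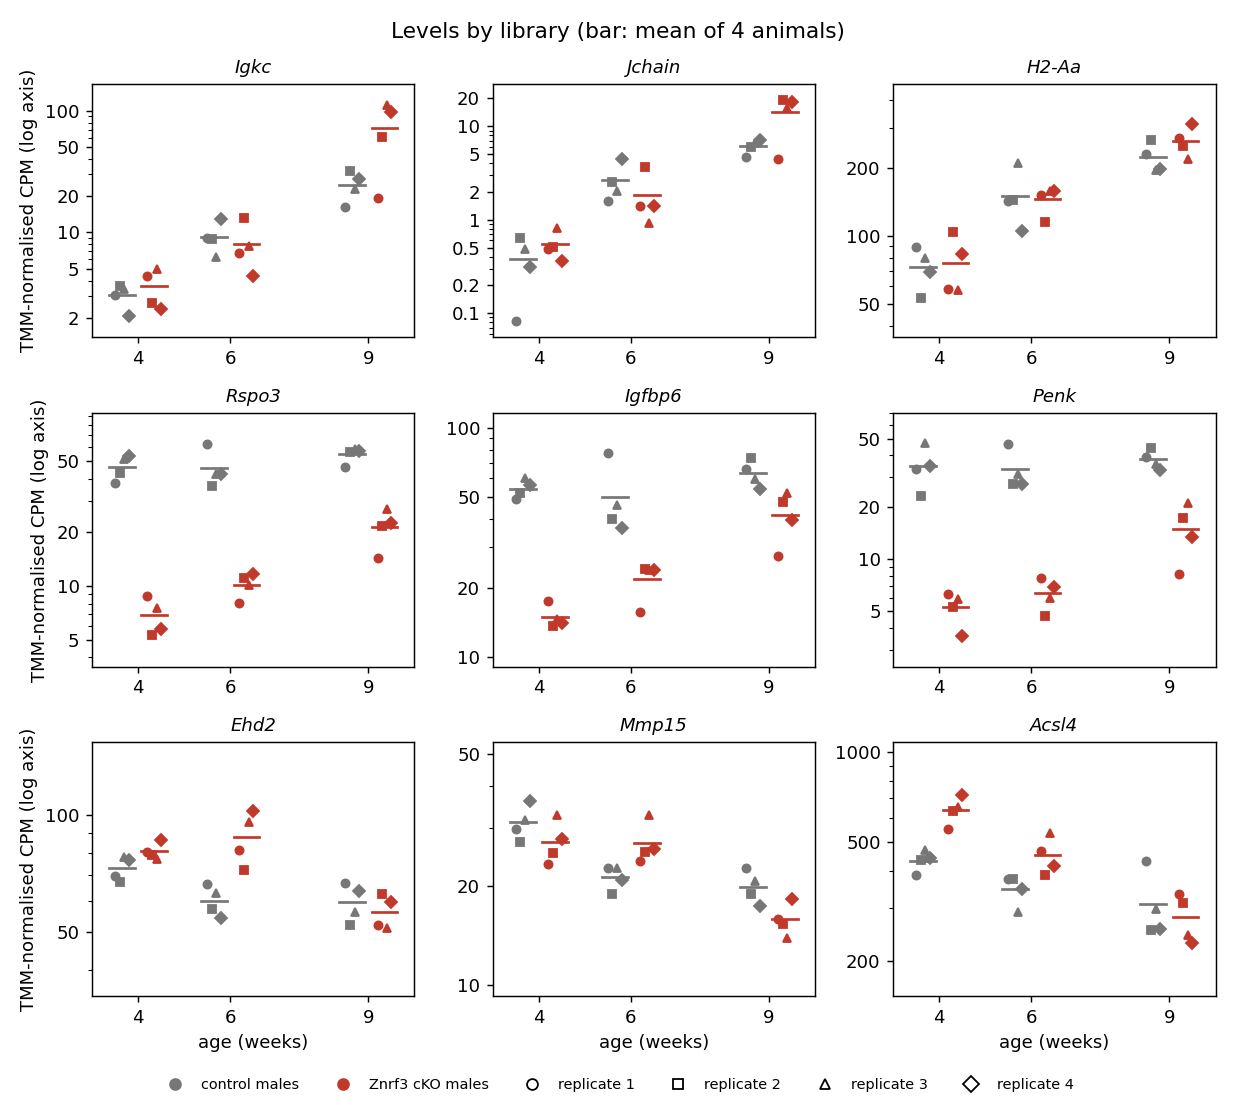
TMM-normalised CPM on log axes in each library of control (grey) and cKO (red) males at 4, 6 and 9 weeks for 9 genes; symbols are replicates and bars the mean of 4 animals. Igkc and Jchain have their highest means in the 9-week cKO glands, Rspo3, Igfbp6 and Penk have lower means in cKO than in control glands at 6 and 9 weeks, and Ehd2, Mmp15 and Acsl4 are lower at 9 than at 6 weeks in cKO glands.

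Genes of MHC class II and dendritic cells held 2 of the called rises. Class II molecules display peptides from engulfed material to CD4+ T cells, and H2-Aa encodes an alpha chain of the pair. H2-Aa (chr17:34282744-34287823) had 152, 115, 158 and 159 CPM at 6 weeks and 270, 250, 219 and 314 CPM at 9 weeks, with no overlap. It rose 1.81-fold (log2 fold change 0.85 ± 0.20 SE, adjusted p = 0.0484 by edgeR) and was called in 4 of 16 alternatives. Control glands went from 151 ± 43.5 to 223 ± 32.6 CPM. At 4 weeks cKO glands had 75.7 CPM, the lowest mean of the 3 ages.

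Promoters of class II genes share short elements that assemble a common activating complex, among them a Y box that binds the factor NF-Y. H2-Aa, H2-Ab1, H2-Eb1, H2-DMa, H2-DMb1, Cd74 and Ciita were looked up in the promoter table of RefSeq (GRCm38.p6), and other genes of the list were not. Entries were found for H2-Aa, H2-Eb1, H2-DMa and H2-DMb1, and 3 of these genes are shown because they hold the same Y box letters close to the start. Each is the stretch of 110 bases that ends just before the annotated start, 5′ to 3′ along the gene, with the match to TGATTGG in capitals.
H2-Aa, minus strand, chr17:34287824-34287933: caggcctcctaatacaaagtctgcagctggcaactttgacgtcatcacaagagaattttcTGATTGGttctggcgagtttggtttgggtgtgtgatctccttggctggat
H2-Eb1, plus strand, chr17:34305757-34305866: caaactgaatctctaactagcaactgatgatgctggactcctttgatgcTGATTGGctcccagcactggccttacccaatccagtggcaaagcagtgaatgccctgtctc
H2-DMb1, plus strand, chr17:34153081-34153190: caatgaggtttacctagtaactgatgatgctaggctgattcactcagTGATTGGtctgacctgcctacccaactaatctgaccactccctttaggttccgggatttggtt
The match begins 50 bases before the start in H2-Aa, 61 in H2-Eb1 and 63 in H2-DMb1. Both H2-DMa entries lacked it in the 250 bases before the start. TGATTGG, or CCAATCA for the other strand, occurs in the same window of 7.23% of all 32851 promoters in the table, so a match describes the letters only.

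The other class II genes were not called. H2-Eb1, a class II beta chain, had 149, 104, 157 and 136 CPM at 6 weeks and 245, 213, 191 and 276 CPM at 9 weeks, without overlap, and missed the threshold (adjusted p = 0.0623 by edgeR). H2-DMb1, part of the peptide-loading chaperone, had 13 to 16.7 CPM at 6 weeks and 17.7 to 27.1 CPM at 9 weeks (adjusted p = 0.224 by edgeR). H2-DMa, its partner chain, had 12.2 to 16.2 CPM and 19.4 to 26.2 CPM (adjusted p = 0.0935 by edgeR). Cd74, the invariant chain that escorts class II molecules, had 332 to 441 CPM and 487 to 839 CPM (adjusted p = 0.105 by edgeR). The levels of these 4 genes at 9 weeks lay above those at 6 weeks in every library, where 9.15% of all genes had ages without overlap. Cd74 and H2-DMb1 were named after their values were seen. Control males had log2 fold changes of 0.55 for H2-Eb1, 0.7 for H2-DMb1, 0.54 for H2-DMa and 0.52 for Cd74. In cKO males these were 0.76, 0.5, 0.64 and 0.64. H2-Ab1, another class II gene, had 0.62 in cKO males (adjusted p = 0.142 by edgeR) and 0.59 in control males.

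Clec9a, a receptor for dead cells on cross-presenting dendritic cells, rose from 0.747, 0.722, 0.656 and 1.4 CPM to 1.12, 2.6, 3.53 and 3.91 CPM (3.19-fold, adjusted p = 0.0473 by edgeR; called in 3 of 14 alternatives). The ages overlapped, because replicate 1 at 9 weeks lay below replicate 4 at 6 weeks. In control males it was 1.6 ± 0.491 CPM at 6 weeks and 1.58 ± 0.525 CPM at 9 weeks. Xcr1, a chemokine receptor of the same dendritic cells, had 0 to 0.444 CPM and 0.407 to 1.82 CPM (adjusted p = 0.0646 by edgeR). Over the list of 14 genes, H2-Aa and Clec9a were called and 10 had an unadjusted p under 0.05, all higher, against 10.5% of all genes. Without replicate 4 at 9 weeks 0 were called and 6 were higher at that level, which 18.2% of all genes reached there in either direction. Without replicate 1 at 9 weeks 5 were called, in a fit that called 7.74% of all genes. The list's median log2 fold change was 0.64 in cKO and 0.53 in control males. H2-M2, a nonclassical class I gene, rose 5.48-fold, from 2.24, 1.06, 6.36 and 3.96 CPM to 11.1, 13, 15.5 and 34.8 CPM (adjusted p = 0.0362 by edgeR), while control glands went from 3.13 ± 2.1 to 9.49 ± 3.28 CPM.

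The levels of most macrophage genes overlapped between the ages. Of 23 genes of macrophage and monocyte identity edgeR called 0, with 6 at an unadjusted p under 0.05, all higher, and DESeq2 called 2. Without replicate 1 at 9 weeks edgeR called 5, all higher, where 3.15% of all genes were called higher. Without replicate 4 at 9 weeks it called 0, with 2 higher and 1 lower at an unadjusted p under 0.05, and the list's median log2 fold change went from 0.42 to 0.12. In that fit 18.2% of all genes had an unadjusted p under 0.05, in either direction. The summed level of the list ran from 915 to 2030 CPM at 6 weeks and from 1110 to 3620 CPM at 9 weeks. Cd68, a lysosomal marker of macrophages, had 131, 150, 47.3 and 109 CPM at 6 weeks and 65.3, 171, 196 and 384 CPM at 9 weeks. The low values were those of replicate 3 at 6 weeks and replicate 1 at 9 weeks, and the ages overlapped (adjusted p = 0.186 by edgeR, 0.0315 without replicate 1 at 9 weeks). Control glands had 21.7 ± 2.02 and 23 ± 2.47 CPM.

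Cd163, a scavenger receptor of resident macrophages, had 0.299, 0.5, 0.918 and 0.699 CPM at 6 weeks and 1.48, 1.53, 2.1 and 1.54 CPM at 9 weeks. Here the ages did not overlap, but the gene missed the threshold (2.73-fold, adjusted p = 0.0629 by edgeR; 0.0298 without replicate 1 at 9 weeks). Ccr2, the receptor by which monocytes leave the blood for tissue, had 3.15 to 5.45 CPM and 5.5 to 13.5 CPM (adjusted p = 0.0937 by edgeR). Cd300ld, a myeloid immune receptor, was called: it rose 3.06-fold from 3.66, 5.77, 3.02 and 4.27 CPM to 7.63, 10.1, 10.3 and 23.4 CPM (adjusted p = 0.0459 by edgeR). Control glands had 3.26 ± 0.539 and 3.6 ± 0.589 CPM of Cd300ld.

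The genes of lipid-laden macrophages, which take up debris and lipid, spanned a wide range at both ages. Gpnmb, a glycoprotein of such cells, had 618, 603, 44.6 and 248 CPM at 6 weeks and 89.5, 506, 423 and 1752 CPM at 9 weeks, and the ages overlapped apart from the highest 9-week gland (adjusted p = 0.473 by edgeR). Its level at 4 weeks was 6.26 CPM in cKO glands, and control glands had 1.56 ± 0.485 and 5.21 ± 3.09 CPM at 6 and 9 weeks. Mmp12, the macrophage elastase, had 381, 456, 96.2 and 285 CPM and then 149, 465, 675 and 1056 CPM (adjusted p = 0.235 by edgeR, 0.0498 without replicate 1 at 9 weeks). Lgals3, a galectin of phagocytes, had 107 to 488 CPM and 147 to 1178 CPM, and Trem2, a lipid-sensing receptor, 14.4 to 56.3 CPM and 20.2 to 132 CPM. Itgax, the integrin CD11c, had 14 to 35.4 CPM and 18.3 to 129 CPM (adjusted p = 0.0881 by edgeR). Of the 18 genes edgeR and DESeq2 called 0, with 5 higher at an unadjusted p under 0.05 and a median log2 fold change of 0.41. The direction depended on the library left out. Without replicate 4 at 9 weeks 0 were higher and 1 lower at that level and the median was -0.13, and without replicate 3 at 6 weeks 1 was higher. Of all genes 18.2% and 13.6% reached that level in those fits, in either direction. Without replicate 1 at 9 weeks edgeR called 5, all higher, in a fit that called 3.15% of all genes higher.

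In the list of macrophage fusion, edgeR and DESeq2 called 0 of 11 genes, with 3 at an unadjusted p under 0.05. Acp5, an acid phosphatase of osteoclasts and giant cells, had 21.9 to 64.0 CPM and 34.7 to 173 CPM (adjusted p = 0.0954 by edgeR). Dcstamp, a fusion receptor, had 0 to 0.278 CPM at 6 weeks and 0.453 to 0.935 CPM at 9 weeks, without overlap but at low counts (adjusted p = 0.101 by edgeR). Among 21 lysosomal genes edgeR called 0, with 7 at an unadjusted p under 0.05 (6 higher), and DESeq2 called 1. Mcoln1, a calcium channel of the lysosome, had 51.8 to 67.3 CPM and 70.5 to 79.7 CPM (adjusted p = 0.0801 by edgeR). Gas6, which bridges dying cells to engulfing receptors, had 180, 205, 151 and 212 CPM at 6 weeks and 214, 287, 241 and 300 CPM at 9 weeks (adjusted p = 0.0548 by edgeR).

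T cell and chemokine genes had mostly positive log2 fold changes and no call by edgeR. Of 15 T and NK cell genes edgeR and DESeq2 called 0, while 9 had an unadjusted p under 0.05, all higher; the median log2 fold change was 0.86 in cKO and 0.33 in control males. Without replicate 4 at 9 weeks 3 were higher at that level, which 18.2% of all genes reached there in either direction. Gzmb, a granule protease of killer cells, had 0.621 to 1.84 CPM and 1.24 to 2.77 CPM (adjusted p = 0.129 by edgeR). Cd8a, the co-receptor of cytotoxic T cells, had 0.373 to 1.06 CPM and 0.763 to 4.29 CPM (adjusted p = 0.155 by edgeR). These are low counts, and the summed list level was 21.5 to 29.4 CPM at 6 weeks and 27.2 to 55.5 CPM at 9 weeks. Of 22 chemokine and cytokine genes edgeR called 0, with 8 at an unadjusted p under 0.05, all higher, and DESeq2 called 2. Without replicate 1 at 9 weeks edgeR called 6 of them, all higher (3.15% of all genes). Without replicate 4 at 9 weeks it called 0 of them, with 3 higher and 1 lower at an unadjusted p under 0.05 (18.2% of all genes in either direction). Ccl3, a macrophage chemokine, had 2.76, 2.66, 1.05 and 3.19 CPM and then 2.14, 5.32, 7.16 and 12.2 CPM (adjusted p = 0.0639 by edgeR). Of 14 interferon-stimulated genes edgeR and DESeq2 called 0, and 0 had an unadjusted p under 0.05 in cKO males.

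The capsule's Wnt agonist rose. Rspo3 (chr10:29452416-29535867) had 8.06, 11.1, 10.1 and 11.7 CPM at 6 weeks and 14.3, 21.8, 27.2 and 22.7 CPM at 9 weeks. The ages did not overlap, and the level rose 2.1-fold (log2 fold change 1.07 ± 0.19 SE, adjusted p = 0.0261 by edgeR). Control glands had 45.9 ± 11.2 CPM at 6 weeks and 54.7 ± 5.46 CPM at 9 weeks, and cKO glands 6.86 CPM at 4 weeks. Rspo3 was called in 8 of 16 alternatives. Igfbp6, which binds IGF2, had 15.8, 24.2, 23.9 and 23.9 CPM at 6 weeks and 27.6, 47.2, 51.8 and 39.4 CPM at 9 weeks (1.89-fold, adjusted p = 0.0462 by edgeR). Control glands had 49.97 ± 18.6 and 63.4 ± 8.57 CPM of Igfbp6.

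The list of 14 capsule and fibroblast genes had Rspo3 as its 1 called member and 9 members at an unadjusted p under 0.05, all higher. Its median log2 fold change was 0.52 in cKO and 0.03 in control males. Without replicate 1 at 9 weeks 5 members were called, all higher, where 3.15% of all genes were called higher. Dcn, the collagen-binding proteoglycan decorin, had 103, 105, 97.3 and 128 CPM at 6 weeks and 108, 199, 212 and 198 CPM at 9 weeks (adjusted p = 0.0631 by edgeR, 0.006 without replicate 1 at 9 weeks). Acta2, smooth muscle actin, had 36.7 to 53.2 CPM and 56.8 to 76.0 CPM (adjusted p = 0.0784 by edgeR). Ogn (osteoglycin) and Omd (osteomodulin), also proteoglycans of connective tissue, are named after their values were seen. Ogn rose from 48.6 ± 5.4 to 73.6 ± 12.8 CPM (adjusted p = 0.0462 by edgeR) and Omd from 3.23 ± 0.494 to 6.46 ± 1.65 CPM (adjusted p = 0.0362 by edgeR). Control glands at 9 weeks had 110 ± 4.4 CPM of Ogn and 9.08 ± 1.64 CPM of Omd.

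Penk, the precursor of enkephalin peptides, rose 2.37-fold from 7.84, 4.72, 5.97 and 6.91 CPM to 8.19, 17.3, 21 and 13.4 CPM (adjusted p = 0.0362 by edgeR). The ages did not overlap, although replicate 1 at 9 weeks was close to the 6-week range. Control glands had 33.1 ± 9.23 and 37.9 ± 5.0 CPM. Penk is a product of chromaffin cells among others. In the list of 18 chromaffin genes of the medulla 18 had a positive log2 fold change and 7 an unadjusted p under 0.05, while edgeR called 0 and DESeq2 called 2. The 7 became 3 without replicate 1 at 9 weeks and 4 without replicate 3 at 6 weeks. In these fits 24.9% and 13.6% of all genes had an unadjusted p under 0.05, in either direction. The summed level of that list was 813 to 1440 CPM at 6 weeks and 1010 to 1650 CPM at 9 weeks. Chga, the granule protein chromogranin A, had 401, 286, 281 and 254 CPM at 6 weeks and 472, 532, 482 and 377 CPM at 9 weeks (adjusted p = 0.139 by edgeR). In control glands Chga was 3608 ± 739 and 2702 ± 876 CPM. Th, the first enzyme of catecholamine synthesis, had 27.1 to 64.7 CPM and 34.3 to 63.4 CPM, which overlapped.

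Glial and zona glomerulosa genes had mostly positive changes and no call by edgeR. Of 10 genes of Schwann and sustentacular cells, the glia of the gland, edgeR called 0, with 3 at an unadjusted p under 0.05, all higher, and DESeq2 called 1. Of 13 genes of the zona glomerulosa, the outer aldosterone-making layer, edgeR called 0 with 4 at an unadjusted p under 0.05, all higher, and DESeq2 called 1. Smoc2, a matrix protein of that zone, had 31.7, 36.5, 52.1 and 50.6 CPM and then 54.6, 71.1, 72.7 and 63.6 CPM (adjusted p = 0.0768 by edgeR). Cyp11b2, aldosterone synthase, had 30.9 to 103 CPM and 55.8 to 132 CPM, against 506 ± 194 and 255 ± 109 CPM in control glands.

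The remaining genes among the largest rises belong to none of the lists. Mamdc2, a secreted proteoglycan, had 3.43, 2.89, 3.15 and 1.79 CPM at 6 weeks and 4.12, 5.94, 6.01 and 23.9 CPM at 9 weeks (adjusted p = 0.0473 by edgeR), and most of the difference in means came from replicate 4 at 9 weeks. Acap1, a GTPase-activating protein of ARF6 found in lymphocytes, rose 2.41-fold from 1.93 ± 0.308 to 4.66 ± 1.25 CPM (adjusted p = 0.0261 by edgeR). B4galnt4, a glycosyltransferase, had 0.149 to 0.388 CPM at 6 weeks and 0.495 to 0.962 CPM at 9 weeks (adjusted p = 0.0417 by edgeR), against 3.99 ± 0.394 and 3.86 ± 1.25 CPM in control glands. Hcn4, a pacemaker channel, had 0.394 to 0.699 CPM and 0.825 to 1.99 CPM (adjusted p = 0.0499 by edgeR), against 3.62 ± 0.557 and 3.6 ± 0.706 CPM in control glands. B4galnt4 and Hcn4 lay below an average log2 CPM of 1, the limit for naming, in every cKO library of both ages. They met that limit only through libraries outside the comparison, so their rises rest on low counts.

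The falls were smaller and tighter. Ehd2, a membrane ATPase of caveolae (chr7:15946958-15967567), had 81.1, 72.4, 95.9 and 103 CPM at 6 weeks and 52.1, 62.7, 51.3 and 59.9 CPM at 9 weeks. All 9-week glands lay below all 6-week glands, 1.56-fold lower (log2 fold change -0.64 ± 0.10 SE, adjusted p = 0.0108 by edgeR). It was called in 12 of 16 alternatives. Control glands had 60.2 ± 5.55 and 59.8 ± 6.84 CPM of Ehd2. Mmp15, a membrane-bound metalloproteinase (chr8:95352268-95375080), had 23.7, 25.4, 32.8 and 25.9 CPM at 6 weeks and 15.9, 15.3, 13.9 and 18.2 CPM at 9 weeks. It was 1.7-fold lower at 9 weeks (adjusted p = 0.0108 by edgeR) and called in 12 of 16 alternatives, while control glands had 21.2 ± 1.81 and 19.9 ± 2.26 CPM.

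Acsl4, which activates arachidonic acid and other long polyunsaturated fatty acids (chrX:142317993-142390535), had 466, 389, 535 and 414 CPM at 6 weeks and 334, 312, 243 and 229 CPM at 9 weeks. It fell 1.61-fold (adjusted p = 0.0462 by edgeR), after 640 CPM at 4 weeks, and control glands had 348 ± 39.8 and 310 ± 83.7 CPM. Ces2e, a carboxylesterase, had the largest called fall among the genes the rule names, 2.55-fold. It had 7.17, 7.05, 14.4 and 7.77 CPM at 6 weeks and 4.38, 4.13, 2.67 and 3.08 CPM at 9 weeks (adjusted p = 0.0362 by edgeR), and replicate 3 at 6 weeks was the high value. Srl, the calcium-binding protein sarcalumenin, fell 2.24-fold from 4.66 ± 0.619 to 2.08 ± 0.697 CPM (adjusted p = 0.0371 by edgeR), while control glands had 3.77 ± 0.933 and 4.58 ± 1.53 CPM. Ildr2, a transmembrane protein of the endoplasmic reticulum, fell from 44.7 ± 11.1 to 25.5 ± 4.19 CPM (adjusted p = 0.0417 by edgeR) and stayed above the 14.8 ± 1.41 CPM of 9-week controls in its mean.

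Pdk3, Arf6, Mgat2 and Edil3 also fell. Pdk3, a kinase that shuts off pyruvate dehydrogenase, fell from 18.4 ± 2.72 to 11.8 ± 2.04 CPM (adjusted p = 0.0362 by edgeR). Arf6, a GTPase of endosome recycling, fell from 49.7 ± 8.35 to 28.3 ± 6.61 CPM, and Mgat2, an enzyme of N-glycan branching, from 72.4 ± 5.26 to 46.8 ± 11.9 CPM (adjusted p = 0.0499 and 0.0484 by edgeR). Edil3, an integrin ligand, fell from 8.53 ± 1.45 to 5.17 ± 1.16 CPM (adjusted p = 0.0499 by edgeR).

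Endothelial genes had mostly negative changes. Of 14 endothelial genes edgeR called 0, with 6 lower and 1 higher at an unadjusted p under 0.05 (9.22% of all genes were lower at that level), and DESeq2 called 2 lower and 1 higher. Pecam1, the junction protein CD31, had 171, 181, 200 and 187 CPM at 6 weeks and 159, 120, 109 and 129 CPM at 9 weeks (adjusted p = 0.055 by edgeR, 0.00604 without replicate 1 at 9 weeks). In control glands it was 114 ± 7.12 and 119 ± 20.04 CPM. Cdh5, the cadherin of endothelial junctions, had 137 to 185 CPM and 110 to 132 CPM (adjusted p = 0.0697 by edgeR). Vwf, the clotting factor stored in endothelium, went the other way, with 5.15, 7.22, 4.26 and 5.05 CPM at 6 weeks and 3.97, 9.67, 11.6 and 19.8 CPM at 9 weeks (adjusted p = 0.0776 by edgeR).

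Nid1, which links laminin to collagen IV and is named after its values were seen, fell from 92.0, 89.3, 129 and 103 CPM to 80.0, 66.6, 55.6 and 65.1 CPM (adjusted p = 0.0462 by edgeR). The chains of collagen IV had a similar size of change without a call. Col4a1 had 849 to 1080 CPM at 6 weeks and 536 to 767 CPM at 9 weeks, and Col4a2 had 529 to 676 CPM and 328 to 460 CPM (adjusted p = 0.0986 and 0.0802 by edgeR). Fbn1, the microfibril protein fibrillin, had 34.4 to 67.8 CPM and 25.7 to 33.3 CPM (adjusted p = 0.0699 by edgeR). Of the 22 collagen and matrix genes edgeR called 0, with 7 lower and 1 higher at an unadjusted p under 0.05, and DESeq2 called 4, all lower. The median log2 fold change of that list was -0.14, and 0.03 without replicate 3 at 6 weeks, which had the highest level of it.

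Levels of steroidogenic genes set replicate 1 at 9 weeks apart from the others. Of 18 genes edgeR called 0, with 2 higher and 2 lower at an unadjusted p under 0.05, and DESeq2 called 1. The share of this list at that unadjusted level was 22.2%, near the 19.7% of all genes. Star, which carries cholesterol into mitochondria, had 7269, 7231, 7036 and 5276 CPM at 6 weeks and 11560, 4650, 4169 and 4176 CPM at 9 weeks (adjusted p = 0.82 by edgeR). Without the first 9-week library its log2 fold change was -0.66 (adjusted p = 0.0336 by edgeR), so that library decided the value. Cyp11b1, the last enzyme of corticosterone synthesis, had 3965 to 6255 CPM and 3186 to 5676 CPM, and its near-identical neighbour Cyp11b2 can share its reads. Nr5a1, steroidogenic factor 1 itself, had 636 to 938 CPM and 636 to 914 CPM (log2 fold change -0.01 ± 0.28 SE). Akr1b7, an aldose reductase of the zona fasciculata, had 1619 to 2694 CPM and 2536 to 5461 CPM (adjusted p = 0.123 by edgeR). Cyb5a, a cytochrome that aids androgen synthesis, had 59.5 to 65.9 CPM and 67.4 to 105 CPM without overlap (adjusted p = 0.0784 by edgeR).

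Of 24 genes of cholesterol synthesis and uptake, edgeR and DESeq2 called 0, with 6 lower and 0 higher at an unadjusted p under 0.05. Hmgcs1, an early enzyme of the path, had 76.7 to 96.5 CPM and 55.8 to 63.6 CPM without overlap (adjusted p = 0.13 by edgeR). Gonad-type genes differed between the 9-week glands. Cyp17a1, the enzyme of androgen synthesis that mouse adrenals lack after birth, had 0.222 to 0.448 CPM at 6 weeks and 2.65, 3.56, 0.525 and 0.22 CPM at 9 weeks (adjusted p = 0.0936 by edgeR). Foxl2, an ovarian transcription factor, was at most 1.05 CPM at 6 weeks and had 2.34, 3.96, 1.29 and 0 CPM at 9 weeks. Of the 14 genes of that list edgeR and DESeq2 called 0, with 4 higher and 1 lower at an unadjusted p under 0.05. Akr1c18, the marker of the inner X-zone, was at or under 0.0777 CPM in every cKO library at both ages.

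Znrf3 itself had 42.8, 44.6, 40.1 and 34.3 CPM at 6 weeks and 46.2, 40.8, 52.3 and 46.7 CPM at 9 weeks, against 28.9 ± 2.63 and 32.3 ± 4.62 CPM in control glands. The deletion removes part of the gene only in Cre-expressing cells, so a count over the whole gene does not check it, and the level was not lower in the cKO glands. Of 16 Wnt target and feedback genes edgeR called 0, with 1 higher and 2 lower at an unadjusted p under 0.05, and DESeq2 called 1, lower. The share of this list at that unadjusted level was 18.8%, near the 19.7% of all genes. Axin2, the general feedback target, had 117, 127, 90.8 and 127 CPM and then 68.9, 118, 107 and 103 CPM (adjusted p = 0.463 by edgeR). Lef1, a transcription factor of the pathway, had 3.15 to 6.49 CPM and 6.77 to 8.02 CPM without overlap (adjusted p = 0.164 by edgeR). Tnfrsf19, a receptor induced by Wnt, had 86.1 to 117 CPM and 61.2 to 83.9 CPM (adjusted p = 0.0935 by edgeR). Rnf43, the paralogue of Znrf3, had 2.56 to 5.45 CPM and 4.7 to 6.06 CPM.

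The change of proliferation genes in cKO males depended on a single gland. Of 29 cell cycle genes edgeR called 0, with 9 lower at an unadjusted p under 0.05, and DESeq2 called 1; the median log2 fold change was -0.64 in cKO and -0.61 in control males. Without replicate 3 at 6 weeks it was -0.14 in cKO males, and 0 genes had an unadjusted p under 0.05, where 6.74% of all genes were lower at that level. Mki67, the marker of cycling cells, had 7.99, 16.3, 37.7 and 11 CPM at 6 weeks and 10.6, 11.3, 14 and 11.1 CPM at 9 weeks, after 53.7 CPM at 4 weeks. Without that 6-week library its log2 fold change was -0.02. Rrm2, which makes deoxynucleotides for replication, had 7.32, 8.83, 20.1 and 6.14 CPM and then 4.83, 5.83, 5.82 and 4.84 CPM (adjusted p = 0.122 by edgeR).

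Of 22 CDK inhibitors and p53 targets edgeR called 0, with 3 higher at an unadjusted p under 0.05, and DESeq2 called 1. The 3 are 13.6% of the list, near the 10.5% of all genes that were higher at that level. Cdkn1a, the inhibitor p21, had 16.3 to 28 CPM and 17.5 to 34.7 CPM, and Cdkn2a, which encodes p16 and p19, had 1.64 to 4.39 CPM and 2.19 to 4.98 CPM. Both overlapped between ages. Of 17 secretory genes tied to senescence edgeR called 0, with 5 higher at an unadjusted p under 0.05, and DESeq2 called 1. Icam1, an adhesion molecule for leukocytes, had 23.5, 23.7, 18.6 and 23.9 CPM and then 20.8, 31.6, 36.6 and 44.9 CPM (adjusted p = 0.074 by edgeR, 0.0056 without replicate 1 at 9 weeks).

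**Figure D5:**
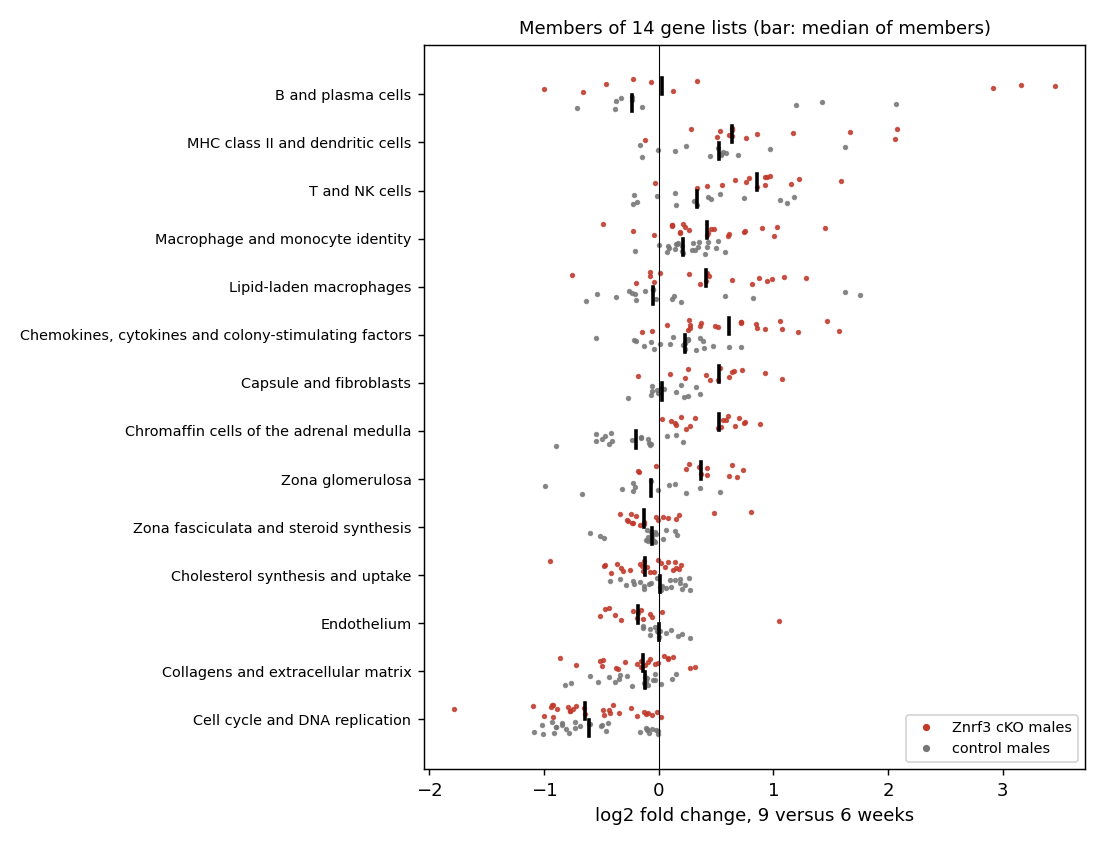
Log2 fold change between 9 and 6 weeks of the tested members of 14 gene lists in cKO (red) and control (grey) males, 1 point per gene, with black bars at the medians. The T and NK cell (0.86), MHC class II (0.64), capsule (0.52) and medulla (0.53) lists have the highest cKO medians apart from the chemokine list (0.62), and the cell cycle list the lowest (-0.64).

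Between the same ages in control males edgeR called 0 of 17086 genes (0%), with 1200 (7.02%) at an unadjusted p under 0.05, and DESeq2 called 5 (0.0293%). The genes that rose in cKO males had a median log2 fold change of 0.07 in control males, and those that fell had 0.01. They were picked by their change in the cKO libraries, so a smaller change in other libraries follows in part from the picking. The test of the difference itself also called 0 genes by edgeR (0%), with a smallest adjusted p of 0.161. DESeq2 called 128 genes there (0.749%), 37 with a more positive and 91 with a more negative change in cKO males. An unadjusted p under 0.05 for the difference was found in 2510 genes (14.7%). By edgeR no gene's change was thus shown to differ between cKO and control males. For Igha the difference was 1.34 log2 units (unadjusted p = 0.112), and for Igkc it was 1.74 (unadjusted p = 0.00447, adjusted p = 0.2). For Ehd2 it was -0.63 (unadjusted p = 0.000263, adjusted p = 0.161). Igha, Igkc and Ehd2 were picked by calls in the same cKO libraries, so these unadjusted p-values give no separate support.

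The same interval in female cKO glands was set beside the males in a joint fit of 17544 genes. The difference between the sexes called 0 genes by edgeR (0%), with 1766 (10.1%) at an unadjusted p under 0.05, and DESeq2 called 23 (0.131%). Sex and sequencing table cannot be told apart in levels, so only the changes were compared. In that fit Igkc had a log2 fold change of 3.11 in males and 2.02 ± 0.42 in females, Jchain 2.87 and 2.34, and Rspo3 1.03 and 1.68 ± 0.26. Jchain and Rspo3 were among 42 genes (0.239%) called in females (adjusted p = 0.0338 and 0.0136 by edgeR), and Igkc was not (adjusted p = 0.0545 by edgeR). Acsl4 had -0.73 in males and -0.1 ± 0.17 in females, with an unadjusted p of 0.0193 and an adjusted p of 0.427 for the difference.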

How the data were processed

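RNA of whole adrenal glands was measured by poly(A)-selected, directional RNA sequencing, per the labels' protocols. The deposited values are raw counts per Ensembl gene, which the authors did not normalise, in a table for males (24 libraries) and a table for females (8 used here). The submitters' processing notes name GRCm38 and, without a role for any of them, featureCounts, DESeq2 (1.30.1), RSEM (1.6.3), cutadapt (1.16) and STAR (2.7.6a). The version of featureCounts and the handling of reads shared by gene copies are not given in the sources used here. The labels call the 4 samples of a group biological replicates, and the series' design says that they are independent mice. Another table, of animals with surgery, was not used here, and 0 columns were left unmapped.

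Groups, ages and replicate numbers came from the sample labels. Symbols and positions came from GENCODE M21 (GRCm38), which named 55227 of 55487 identifiers (99.53%). The tests used edgeR 4.0.16 (limma 3.58.1, under R 4.3.3) on the deposited counts: filterByExpr at a minimum count of 10 left 17086 genes in males (17544 with females), TMM factors scaled the libraries, and the 6 male groups entered 1 quasi-likelihood fit with a common estimate of spread. Calls are Benjamini-Hochberg adjusted p under 0.05 over all genes tested. A standard error is the absolute log2 fold change over the square root of F, an approximation. Gene levels are TMM-normalised CPM, and list levels by library are means of log2 CPM with a prior count of 2, centred over libraries. Cell type lists are described by counts and medians only. The procedure was tested on simulated data. Single values were compared by exact permutation.

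Alternatives were DESeq2 1.42.0, relative log expression scaling, no low-count filter, a filter of CPM 5 in 4 libraries, fits of the groups compared alone, the replicate number as a block, the range of the library number (above 24 or not) as a covariate, libraries numbered up to 24, and each library left out. Same-numbered libraries of the 2 ages did not deviate together (correlation -0.17 to 0 over 9250 genes).

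The groups and the 35 gene lists were chosen with earlier results of these data known. Genes named are a set looked at in any case (such as Znrf3, Mki67, Star and Cd68), 10 rises and 10 falls, the largest of the called genes that have a symbol, an average log2 CPM of at least 1 and ages that do not overlap, and the 5 smallest p of each list, not all of which are printed. The average log2 CPM was taken over all 24 male libraries, control glands included. Cd74, Mzb1, H2-DMb1, Ogn, Omd, Nid1, Rps2-ps10, Igkv10-96 and Iglv1 were added after their values were seen.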

Additional observations from a re-analysis of the deposited data

Results flagged for a closer look

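In groups of 4 glands a value is given here where its gap to the nearest other gland was a larger part of the group's whole range than Dixon's critical value for 4 samples. Of 290 groups looked at (110 genes and 35 lists at 2 ages), 24 met this, and chance alone gives about 1 in 20.

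At 6 weeks, replicate 3 was low in Ctsl, a lysosomal protease (124 CPM against 252 to 268), in Icam1 (18.6 against 23.5 to 23.9), in the macrophage and monocyte list (-0.48 log2 units against -0.1 to -0.08) and in the chemokine list (-0.49 against -0.23 to -0.18). The same library was high in Ces2e (14.4 CPM against 7.05 to 7.77) and in Ccne2, a cyclin of replication (3.02 against 0.373 to 0.777). Replicate 2 at 6 weeks was low in H2-Aa (115 CPM against 152 to 159), Cd74 (332 against 426 to 441) and Perp, a p53 target (0.722 against 1.94 to 2.16). It was high in the liver and kidney list (3.9 log2 units against -2.1 to -1.74), which rests on 4 tested genes. Replicate 1 at 6 weeks was low in Igfbp6 (15.8 CPM against 23.9 to 24.2) and high in Omd (3.96 against 2.87 to 3.05). Replicate 4 at 6 weeks was high in Clec9a (1.4 CPM against 0.656 to 0.747) and low in Star (5276 against 7036 to 7269).

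At 9 weeks, replicate 1 was high in Star (11560 CPM against 4169 to 4650) and in the steroid synthesis list (0.26 log2 units against -0.15 to -0.08), and low in Dcn (108 CPM against 198 to 212). Replicate 2 at 9 weeks was low in the immediate early list (-0.42 log2 units against 0.13 to 0.17). Replicate 3 at 9 weeks was high in Cd163 (2.1 CPM against 1.48 to 1.54) and low in Pdk3 (8.73 against 12.6 to 13.1). Replicate 4 at 9 weeks was high in Cd300ld (23.4 CPM against 7.63 to 10.3), Mamdc2 (23.9 against 4.12 to 6.01) and Cdkn1a (34.7 against 17.5 to 18.99), and low in the erythrocyte list (-0.75 log2 units against -0.03 to 0.07).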

How the results depend on the processing

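For cKO males, 70 genes were called higher and 60 lower by edgeR with all libraries. DESeq2 called 350 higher and 390 lower, and a CPM filter of 5 in 4 libraries left 129 lower. Fits of the 2 ages alone called 0 and 0, as did libraries numbered up to 24 (4 against 2 glands), where all 130 genes kept their sign at a median 0.795 of their size. Those glands were among the ones that picked the 130 genes, so the kept sign gives no separate support. The range of the library number (above 24 or not) as a covariate gave 4 and 3. The cause of these differences was not tested. With the replicate number as a block, 8 higher and 9 lower were left. The numbers do not pair animals: 0 of 8 libraries deviated most like the library of the other age with its own number.

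For control males DESeq2 called 2 higher and 3 lower, the unfiltered fit 1 lower and the fit of the 2 ages alone 2 higher. For the difference between cKO and control males DESeq2 called 37 and 91, and between the sexes 5 and 18. In both differences the replicate block gave 0, as without it. With the range of the library number as a covariate the difference from control males had 0 calls by edgeR. The share of genes at an unadjusted p under 0.05 for that difference went from 14.7% to 8.61%.

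Leaving out each library gave 1 to 547 higher and 0 to 798 lower in cKO males, 0 to 1 and 0 to 2 in control males, 0 to 6 and 0 to 15 for their difference, and 0 to 1 and 0 to 2 for the difference between the sexes. Without replicate 1 of the 9-week cKO glands the difference from control males had 21 called genes. The share of rises among the calls was 53.8% and went to 47.7% with relative log expression factors, 33.2% with the CPM filter and 47.3% with DESeq2. Of the 25 called genes that the naming rule gives, 7 were still called with the replicate block, 4 with that covariate and 21 with relative log expression factors. Library totals of 12431963 to 20533468 counts leave genes under about 1 CPM, such as Dcstamp, Xcr1 and B4galnt4, with few counts.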

Other observations

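Circadian clock genes, whose levels follow the time of day, varied more widely among the 9-week cKO glands: the summed level of 16 genes was 1800, 824, 1210 and 643 CPM in replicates 1 to 4, against 1110 to 1350 CPM at 6 weeks. Cry1, a clock repressor, had 4.33 to 5.67 CPM at 6 weeks and 4.63, 8.32, 6.2 and 21.1 CPM at 9 weeks (adjusted p = 0.136 by edgeR). Npas2, a clock activator, had 8.05 to 14.4 CPM at 6 weeks and 6.46, 25.2, 19.3 and 44.7 CPM at 9 weeks (adjusted p = 0.252 by edgeR). Replicate 1 at 9 weeks, lowest in Npas2, was the gland with the highest Star level, and replicate 4, highest in Npas2, had the highest lipid-laden macrophage level. Between the ages edgeR and DESeq2 called 0 of the 16 genes, with 2 higher and 1 lower at an unadjusted p under 0.05. That is 18.8% of the list, near the 19.7% of all genes. The part of the time of dissection was not tested.

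Nuclear-encoded oxidative phosphorylation genes were split in direction. Of 24 genes edgeR called 0, with 3 higher and 5 lower at an unadjusted p under 0.05, and DESeq2 called 1 higher and 2 lower. Sdhd, a subunit of succinate dehydrogenase, had 86.3 to 108 CPM at 6 weeks and 64.4 to 84.0 CPM at 9 weeks, without overlap (adjusted p = 0.0562 by edgeR). Atp5b, the catalytic subunit of ATP synthase, had 983 to 1354 CPM and 674 to 1036 CPM (adjusted p = 0.0936 by edgeR). Cox5b, a subunit of cytochrome c oxidase, went the other way, from 164 to 205 CPM to 182 to 261 CPM (adjusted p = 0.0957 by edgeR).

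Of 19 genes of apoptosis and inflammatory caspases edgeR called 0 and DESeq2 called 1 higher, with 7 higher and 1 lower at an unadjusted p under 0.05. Casp8, an initiator caspase, had 35.3 to 39.6 CPM at 6 weeks and 38.7 to 52.2 CPM at 9 weeks (adjusted p = 0.126 by edgeR).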
